A study of Mus musculus with 6 samples.

Results

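The 9 genes described here encode enzymes that make nucleotides: Ppat, Gart, Paics and Impdh2 of purine synthesis, Cad and Umps of pyrimidine synthesis, and Rrm1, Rrm2 and Tyms of deoxynucleotide synthesis. They were chosen by name, with earlier results of these data known. They are 9 of the 37074 gene names on a 1-colour Agilent mouse microarray, and each was read from every probe that carries its name. LSK cells (Lineage-, Sca1+, cKit+), the bone marrow fraction that holds haematopoietic stem cells and multipotent progenitors, had been sorted from C57BL/6 mice at postnatal day 6 to 8. The 3 control samples were Atg5w/w;VaviCre+ and the 3 Atg5f/f;Vav samples were Atg5f/f;VaviCre+, so that both groups carried the Cre, whose Vav promoter is active across the haematopoietic lineage. By the labels the genotypes differ in the floxed allele of Atg5, a gene required to build autophagosomes. The labels do not say whether a sample was 1 mouse or a pool, so the p-values below measure the spread between these samples.

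Cells make purines stepwise on activated ribose. PPAT commits the sugar phosphate to the pathway, GART and PAICS each carry out several of the middle steps, and IMPDH2 turns the branch product inosine monophosphate towards guanine nucleotides. CAD joins the first steps of pyrimidine synthesis in a single chain and UMPS completes uridine monophosphate. RRM1 and RRM2 are the large and the small subunit of ribonucleotide reductase, which turns ribonucleotides into deoxyribonucleotides, and TYMS makes thymidylate. Stem cells of adult marrow, from mice older than those sampled here, are mostly quiescent, whereas cycling progenitors need these products to copy their DNA.

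All 6 arrays were on 1 slide and in 1 scan, with all control samples in slide row 1 and all Atg5f/f;Vav samples in slide row 2, and an effect of the row cannot be told apart from that of the genotype. The 75th percentile of intensity lay between 620.3 and 881.4, no spot was saturated, and 57.6% to 58.2% of probes were well above background in control arrays against 51.6% to 54.8% in Atg5f/f;Vav arrays. The Atg5 probe, the check of the labels, had a log2 signal of 1.10, 0.93 and 1.06 in control and 1.46, 1.51 and 1.74 in Atg5f/f;Vav, a difference of 0.54 ± 0.12 (SE, adjusted p = 0.0209 by limma). That goes against the label, and whether the probe lies in the deleted part was not determined here. The Atg5f/f;Vav arrays are thus the arrays labelled so throughout, and every direction below rests on the labels.

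The sequences upstream of the enzymes are given for the motifs they hold, since the 9 genes are read side by side below. Windows of 250 bases before the annotated start were taken from RefSeq (GRCm38.p6), which matched all 9 genes, and were searched on both strands for the E-box CACGTG, which Myc family factors bind, for E2F letters, that is TTCCCGC or its variants with TTGGCGC or else TTCGCGC or else TTGCCGC, and for the CCAAT box. The GC box GGGCGG and, as the core of the antioxidant response element, TGACNNNGC were searched too. An E-box was found for Impdh2, Tyms and Paics, that is in 3 of 9 windows, against 6.02% of the 32851 windows of all genes. E2F letters were found for Ppat, Rrm1 and Rrm2, against 7.89% of all windows. In the lines below E-box, E2F and CCAAT letters are in capitals. Impdh2 and Tyms are shown for their E-boxes, at 110 and 61 bases before the start, and Rrm1 and Rrm2 for E2F letters together with CCAAT. The last 20 bases of the Tyms window fall inside the longest annotated span of that gene.
Impdh2, chr9:108560186-108560435, plus strand: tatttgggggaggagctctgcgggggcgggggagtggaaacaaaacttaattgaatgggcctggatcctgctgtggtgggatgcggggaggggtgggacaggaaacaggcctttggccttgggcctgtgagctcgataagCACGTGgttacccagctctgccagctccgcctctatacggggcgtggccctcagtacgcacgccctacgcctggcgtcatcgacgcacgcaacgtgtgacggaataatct
Tyms, chr5:30073626-30073875, minus strand: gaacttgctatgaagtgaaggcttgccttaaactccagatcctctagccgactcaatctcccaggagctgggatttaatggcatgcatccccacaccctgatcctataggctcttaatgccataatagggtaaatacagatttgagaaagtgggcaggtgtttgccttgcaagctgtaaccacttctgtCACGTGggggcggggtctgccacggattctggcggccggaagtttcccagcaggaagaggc
Rrm1, chr7:102441445-102441694, plus strand: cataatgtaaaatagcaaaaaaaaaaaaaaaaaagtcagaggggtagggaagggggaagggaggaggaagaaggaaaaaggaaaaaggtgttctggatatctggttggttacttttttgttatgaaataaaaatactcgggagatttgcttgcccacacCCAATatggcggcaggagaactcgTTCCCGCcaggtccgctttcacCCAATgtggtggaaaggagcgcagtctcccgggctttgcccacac
Rrm2, chr12:24708004-24708253, plus strand: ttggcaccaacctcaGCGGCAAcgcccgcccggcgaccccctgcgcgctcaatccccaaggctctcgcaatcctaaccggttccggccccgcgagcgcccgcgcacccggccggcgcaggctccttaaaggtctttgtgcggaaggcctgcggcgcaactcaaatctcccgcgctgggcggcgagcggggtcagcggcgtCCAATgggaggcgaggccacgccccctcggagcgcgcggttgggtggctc
The Paics E-box lay 203 bases before that gene's start and is shown with its flanks, with the E-box in capitals.
Paics, chr5:76951087-76951116, plus strand: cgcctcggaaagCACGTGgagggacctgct
Paics and Ppat are head-to-head neighbours on chromosome 5 whose annotated spans share 277 bases at their 5′ ends, so the whole Paics window lies inside Ppat and the whole Ppat window inside Paics. The Ppat window held TTCCCGC 3 times, at 211, 158 and 50 bases before the start, with a GC box over part of the one at 158. CCAAT, present in 33.8% of all windows, was found for Gart, Paics, Rrm1 and Rrm2, and GGGCGG, present in 32.7%, for every enzyme but Rrm1. TGACNNNGC, present in 10.2%, was found for Cad and Rrm2. No E-box, E2F or CCAAT letters were in the Cad and Umps windows, and the last 160 bases of the Cad window fall inside the longest annotated span of that gene. A match is a match of letters and was not tested as a binding site.

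Of the 9 enzymes, 8 rose in Atg5f/f;Vav LSK cells, 1 (Paics) did not pass the test and none fell. The log2 differences ran from 0.36 for Paics to 0.99 for Gart, with a median of 0.77. In each of the 9, all 3 Atg5f/f;Vav arrays lay above all 3 control arrays, which in an exact two-sided permutation test gives p = 0.1, the smallest that 3 against 3 arrays allow. Many genes differed on these arrays, so the count is to be read against a high background. By the brightest probe of a gene, 34.1% of 20778 genes passed the limma test, 18.7% as higher and 15.3% as lower. By probe, 34.4% of 32074 passed, 17.3% as higher and 17.1% as lower, and in 27.1% of the probes measured on all 6 arrays the Atg5f/f;Vav arrays all exceeded the control arrays. The median difference over all probes was -0.06. When each array was scaled on the probes detected on every array, that median went to -0.27 and the called probes split into 3371 higher and 10088 lower, instead of 5540 and 5484. Relative to the median of all probes, that of the 9 enzymes lay 0.83 higher, a distance that a shift of whole arrays cannot change, and 0.50 higher under quantile normalization. In the fit as reported, 6.57% of all genes had a difference as large as that median or larger.

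**Figure D1:**
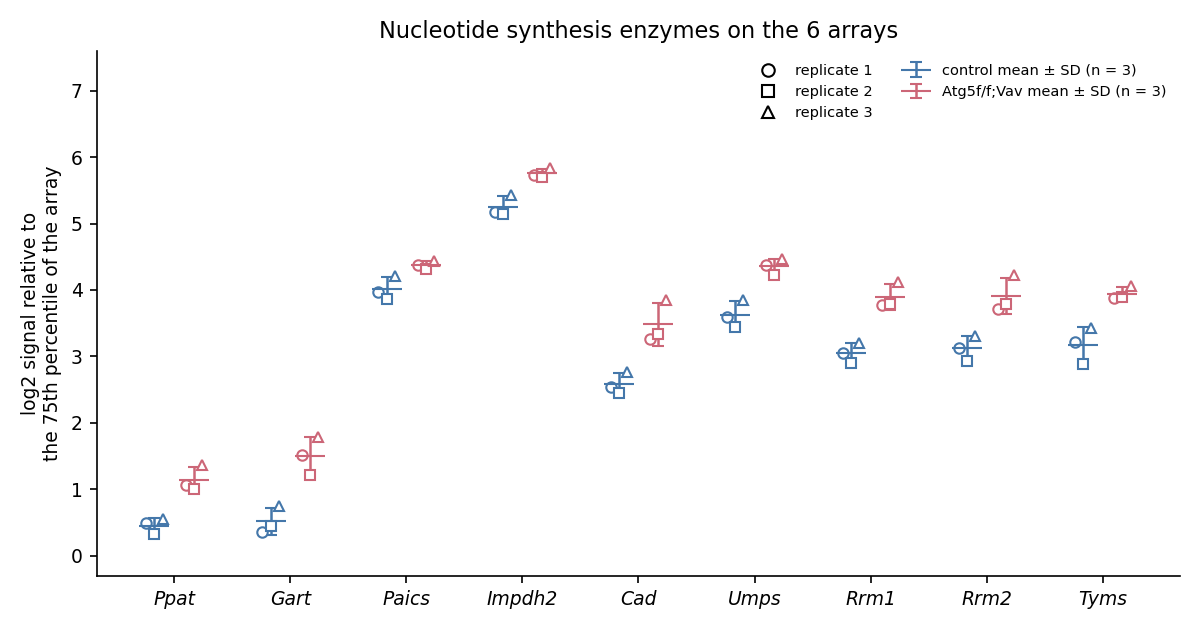
Log2 signal relative to the array's 75th percentile (y axis) of the brightest probe of each of the 9 enzymes (x axis), with 1 point per array and the mean ± SD of 3 control (blue) and 3 Atg5f/f;Vav (red) arrays. The 3 red points lie above the 3 blue points for every enzyme, with the narrowest distance for Paics, and heights of different genes are not comparable since each probe hybridises differently.

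Among the purine enzymes, Gart had the largest difference and Paics the smallest. Gart had log2 signals of 0.35, 0.45 and 0.75 in control and 1.52, 1.21 and 1.78 in Atg5f/f;Vav. The lowest Atg5f/f;Vav array stood clear of the highest control array, and the difference was 0.99 ± 0.18 (SE, 1.98-fold, adjusted p = 0.0164 by limma). This probe, A_51_P436201 at chr16:91624630-91624689 on the minus strand (all probe positions are from the file, build mm9), starts at base 2468 of its transcript. Ppat, the committing amidotransferase, had 0.49, 0.33 and 0.55 against 1.06, 0.998 and 1.37. Its control arrays lay within a narrow band and its difference was 0.69 ± 0.14 (1.61-fold, adjusted p = 0.0172, probe A_51_P296905 at chr5:77342626-77342685, minus strand).

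Impdh2, the rate-limiting enzyme towards guanine nucleotides, had log2 signals of 5.17, 5.14 and 5.43 in control and 5.73, 5.71 and 5.83 in Atg5f/f;Vav. Its 3 Atg5f/f;Vav arrays were close together and above control, by 0.51 ± 0.12 (1.42-fold, adjusted p = 0.0237, probe A_55_P2112922 at chr9:108467836-108467895, plus strand). For Paics the values were 3.97, 3.86 and 4.21 in control and 4.38, 4.31 and 4.43 in Atg5f/f;Vav. The groups did not overlap, but the highest control array nearly reached the lowest Atg5f/f;Vav array. The difference of 0.36 ± 0.13 (1.28-fold, 95% confidence interval 0.06 to 0.66) had an adjusted p of 0.0646 and was not called (probe A_51_P142904 at chr5:77396199-77396258, plus strand).

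Ppat and Paics, whose starts overlap, differed from control by unequal amounts. Ppat minus Paics, taken within each array, was -3.49, -3.53 and -3.66 in control and -3.32, -3.31 and -3.06 in Atg5f/f;Vav. This difference was higher by 0.33 in Atg5f/f;Vav without overlap (exact permutation p = 0.1, the smallest possible), and the pair was chosen after its values were seen.

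Both pyrimidine enzymes rose. Cad had log2 signals of 2.53, 2.45 and 2.77 in control and 3.26, 3.33 and 3.85 in Atg5f/f;Vav. All control arrays were lower, by 0.90 ± 0.19 (1.86-fold, adjusted p = 0.0181, probe A_52_P16098 at chr5:31380681-31380740, plus strand). Umps had 3.60, 3.44 and 3.85 in control and 4.38, 4.23 and 4.46 in Atg5f/f;Vav. Here too the groups stood apart, by 0.73 ± 0.14 (1.65-fold, adjusted p = 0.0168, probe A_55_P2185273 at chr16:33956683-33956742, minus strand).

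The 3 enzymes that supply DNA precursors all rose. Rrm1, the large subunit, had log2 signals of 3.05, 2.89 and 3.20 in control and 3.78, 3.78 and 4.11 in Atg5f/f;Vav, and Rrm2, the small subunit that is made mainly in S phase, had 3.12, 2.93 and 3.31 against 3.72, 3.78 and 4.22. Their differences were 0.84 ± 0.14 (1.79-fold, adjusted p = 0.0154, probe A_51_P502082 at chr7:109617223-109617283, plus strand) and 0.78 ± 0.17 (1.72-fold, adjusted p = 0.0203, probe A_55_P2173982 at chr12:25398824-25398883, plus strand). In both, replicate 3 was the highest array of its group. Tyms had 3.22, 2.89 and 3.42 in control and 3.88, 3.90 and 4.06 in Atg5f/f;Vav, and no array of one group entered the range of the other. Its difference was 0.77 ± 0.16 (1.70-fold, adjusted p = 0.0181, probe A_51_P398366 at chr5:30387605-30387664, minus strand).

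In order of their log2 differences the enzymes ran Gart, Cad, Rrm1, Rrm2, Tyms, Umps, Ppat, Impdh2 and Paics. For the 8 pairs of neighbours in that order the exact permutation p of the gap was between 0.1 and 1. The lowest p, for Impdh2 over Paics with a gap of 0.15, is the smallest that the design can give. No gap could thus have passed a threshold of 0.05, and this test cannot decide whether neighbours differ. Each enzyme was also centred on its own mean over the arrays and averaged with the others. The 9 enzymes then stood at -0.40, -0.52 and -0.18 in control and 0.29, 0.24 and 0.56 in Atg5f/f;Vav. Control replicate 3 and Atg5f/f;Vav replicate 3 were thus the highest of their groups. Umps and Ppat followed this mean most closely, with root mean square distances of 0.056 and 0.055, while Paics (0.198) and Gart (0.171) lay farthest from it.

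The array holds 19 probes for the 9 genes, of which 18 were bright enough to be tested. Of these 17 were higher in Atg5f/f;Vav, 12 passed the test as higher and none as lower, and 14 showed no overlap between the groups. Among all tested probes 17.3% passed as higher, and in 27.1% of those measured on all 6 arrays the Atg5f/f;Vav arrays all exceeded control. Probes of the same gene are not independent of each other. Second probes also passed as higher for Ppat (0.70 ± 0.20, adjusted p = 0.0382), Impdh2 (0.63 ± 0.14, adjusted p = 0.0190) and Gart (0.70 ± 0.17, adjusted p = 0.0227). One further Tyms probe had 0.75 ± 0.16 (adjusted p = 0.0187), whereas another, designed to a different transcript of the gene, had 0.09 ± 0.11 (adjusted p = 0.573). Another Gart probe, on the opposite strand to the gene, was well above background on 0 of 6 arrays and was not tested.

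Probes of the same gene gave differences of unequal size. Within each array the gap between the brightest probe and the other one shifted without overlap for Gart by 0.29 and for Impdh2 by -0.13 (exact permutation p = 0.1 for both, the smallest possible), although both probes of each gene passed. For Cad, Umps and Paics the other probes did not pass. They were also much dimmer, with mean control signals of -2.57 against 2.58 for Cad and 0.85 against 3.63 for Umps. For Paics these were 1.22 and -0.88 against 4.02. The further probes of Ppat, Impdh2, Gart and Tyms that passed were dimmer than the brightest one too, and the part of brightness was not tested. The Cad probe near the 3′ end of the transcript, at base 6965, had 0.90, while the one at base 2668 had -2.66, -2.54 and -2.52 in control and -2.62, -2.30 and -1.93 in Atg5f/f;Vav, a difference of 0.29 ± 0.18 (adjusted p = 0.244) with overlapping groups. Taken within each array, the gap between both Cad probes widened by 0.61 in Atg5f/f;Vav (exact permutation p = 0.1, the smallest possible). Umps showed 0.31 ± 0.11 (adjusted p = 0.0709) at base 3042, short of its main probe by 0.41 (p = 0.1 by the same permutation test). The other Paics probes had 0.08 ± 0.12 (adjusted p = 0.628) at base 757 and -0.13 ± 0.21 (adjusted p = 0.643) for a separate transcript, with overlapping gaps to the main probe (exact permutation p = 0.2). The Paics probe at base 757 covers 1676 bases of genome with its 60 bases and so crosses a splice junction (chr5:77388474-77390149, plus strand). Of the probes that did not follow the brightest one of their gene, those of Cad and Paics are printed to show what was hybridised, with no capitals.
Cad probe at base 2668, chr5:31369447-31369506, plus strand: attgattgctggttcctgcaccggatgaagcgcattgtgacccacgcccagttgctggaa
Paics probe at base 757: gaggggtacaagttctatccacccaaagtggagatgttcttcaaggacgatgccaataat

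**Figure D2:**
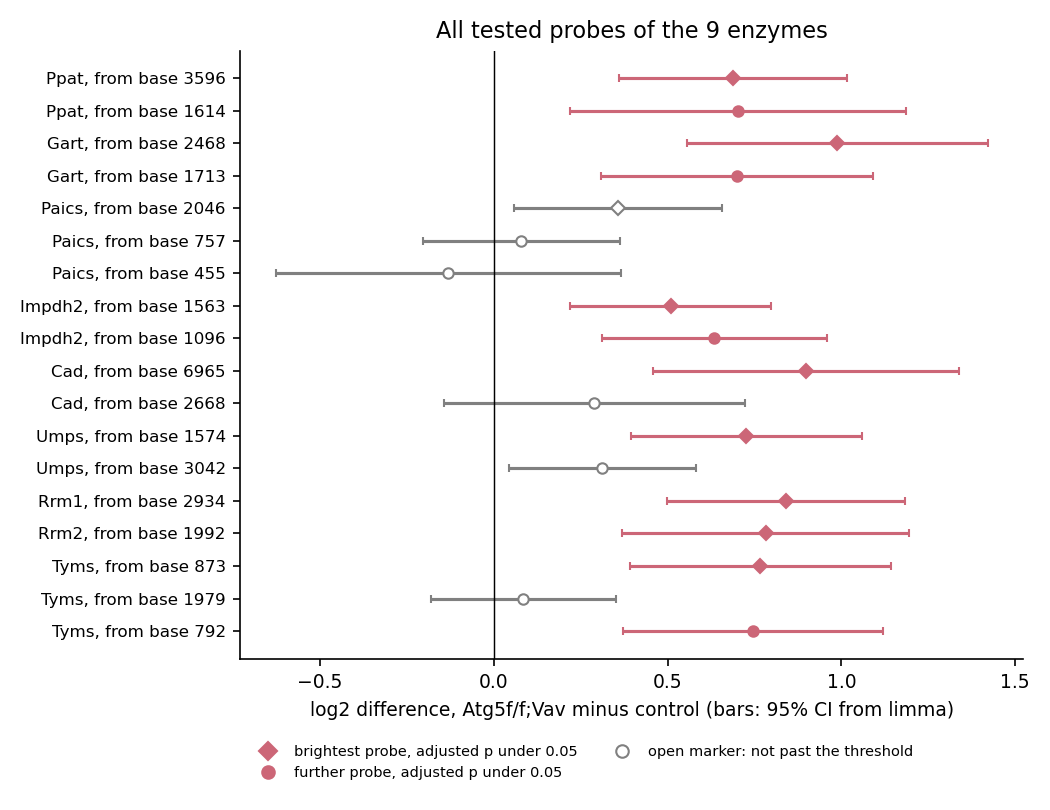
Log2 difference, Atg5f/f;Vav minus control (x axis), with its 95% confidence interval for the 18 tested probes of the 9 enzymes (y axis, named by the base of the transcript where the probe starts). Filled symbols passed the limma test at an adjusted p under 0.05, diamonds are the brightest probe of a gene, and the 6 open symbols include all 3 Paics probes.

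Impdh2 and Rrm2 each have a paralogue for the same reaction, the isozyme IMPDH1 and the p53-inducible small subunit RRM2B. Impdh1 had log2 signals of 2.65, 2.61 and 2.90 in control and 2.87, 2.42 and 2.41 in Atg5f/f;Vav, which overlapped (-0.16 ± 0.16, adjusted p = 0.476). Rrm2b had -2.46, -2.34 and -2.23 against -2.73, -2.90 and -2.49, which did not overlap but did not pass the test (-0.36 ± 0.14, adjusted p = 0.0856). Both paralogues thus had lower means in Atg5f/f;Vav, against the direction of the members. Impdh2 minus Impdh1 within an array was 2.52, 2.53 and 2.53 in control and 2.86, 3.29 and 3.42 in Atg5f/f;Vav, a widening of 0.67. Rrm2 minus Rrm2b was 5.59, 5.27 and 5.54 against 6.45, 6.68 and 6.70, a widening of 1.15. Both widenings had an exact permutation p of 0.1, the smallest that 6 arrays can give. A common scaling of an array cannot alter them, but quantile normalization reduced them to 0.55 for Impdh2 and 0.62 for Rrm2.

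The other enzymes of the 3 pathways were taken from lists of 30 genes that include the 9. Of the 21 others, 12 rose, none fell and 9 did not pass the test, with a median log2 difference of 0.53 against -0.03 for all genes tested. Among all genes 18.7% passed as higher and 15.3% as lower, and the counts of every list below are to be read against these shares. Over all 30 the counts were 20, 0 and 10 and the median was 0.66, with 16 rises and no fall under quantile normalization, and 18 rises and 1 fall (Rrm2b) when scaled on probes detected on all arrays. Named below are the enzymes that act directly beside a member, and the leading genes of each list. Upstream of PPAT, Prps1, which makes the activated ribose, had 0.78 ± 0.16 (adjusted p = 0.0180), while its isozyme Prps2 had 0.09 ± 0.14 (adjusted p = 0.639) by its brightest probe and 0.57 (adjusted p = 0.0450) by another. The Prps2 sign turned to -0.11 under quantile normalization and to -0.12 when arrays were scaled on probes detected on all of them.

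Before the branch point, Pfas rose by 0.80 ± 0.17 (adjusted p = 0.0186) and Atic, which closes the purine ring, by 0.61 ± 0.14 (adjusted p = 0.0211). Atic has 4 probes, of which 2 passed the test and the others had -0.06 and -0.17. Adsl, the lyase used before and after inosine monophosphate, had -0.07 ± 0.12 (adjusted p = 0.658). Past the branch point the list holds both arms. Gmps, which completes guanosine monophosphate after IMPDH2, rose by 0.86 ± 0.18 (adjusted p = 0.0185), and Adss, on the adenine branch, had 0.18 ± 0.11 (adjusted p = 0.226), a value that turned to -0.03 when scaled on the probes detected on all arrays. Whether the guanine and adenine branches differ was not tested.

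In the pyrimidine list 7 of 8 genes rose. Dhodh, the mitochondrial enzyme between CAD and UMPS, rose by 0.89 ± 0.16 (adjusted p = 0.0154) and Ctps, which makes cytidine triphosphate, by 0.71 ± 0.12 (adjusted p = 0.0153). The largest rise of the list was that of Nme1, a nucleoside diphosphate kinase, at 0.96 ± 0.15 (adjusted p = 0.0145), and the gene that did not pass was Ctps2 (-0.11 ± 0.15, adjusted p = 0.592). In the deoxynucleotide list 6 of 9 rose, among them Dut, which supplies the substrate of TYMS, at 0.75 ± 0.16 (adjusted p = 0.0183). A second Dut probe had -0.00 (adjusted p = 0.987). The salvage list, of enzymes that recycle bases and nucleosides, had 6 of 12 rises, no fall and a median of 0.38. That split did not hold under other scalings, with 1 rise and 2 falls (median 0.20) under quantile normalization and 3 rises and 2 falls (median 0.18) when scaled on the probes detected on all arrays. The largest differences were those of Aprt (0.64 ± 0.15, adjusted p = 0.0233), Tk1 (0.64 ± 0.14, adjusted p = 0.0199) and Pnp (0.61 ± 0.16, adjusted p = 0.0269). At the other end stood Dguok, a mitochondrial deoxyguanosine kinase, with -0.33 ± 0.11 and an adjusted p of 0.0501, which passed as lower under normexp background correction (0.0348), quantile normalization (0.0259) and scaling on probes detected on all arrays (0.0166).

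**Figure D3:**
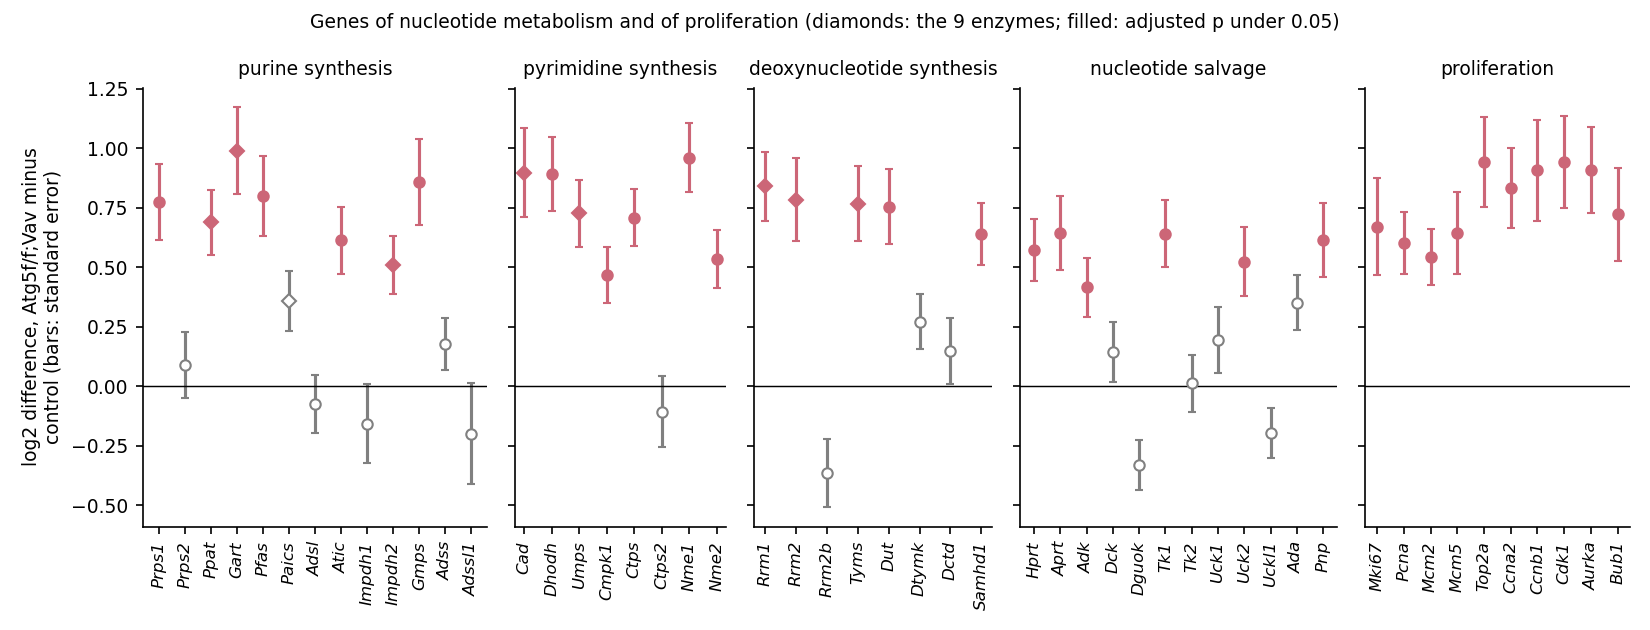
Log2 difference, Atg5f/f;Vav minus control (y axis), with its standard error for genes of 4 lists of nucleotide metabolism and of the proliferation list (x axis); 1 deoxynucleotide gene is not drawn. Diamonds are the 9 enzymes and filled symbols passed the limma test at an adjusted p under 0.05, among them 6 of 12 salvage genes and 10 of 10 proliferation genes, all of them higher.

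Markers of proliferation moved with the enzymes. All 10 genes of the proliferation list rose, from 0.54 ± 0.12 for Mcm2 to 0.94 ± 0.19 for Cdk1, the mitotic kinase, with a median of 0.78 against 0.77 for the 9 enzymes. Quantile normalization left 6 of the 10 calls and scaling on probes detected on all arrays left 7, with no fall under either. On the individual arrays the centred mean of the list was -0.36, -0.62 and -0.18 in control and 0.35, 0.18 and 0.63 in Atg5f/f;Vav. The enzymes minus this list gave -0.04, 0.10 and 0.00 in control and -0.06, 0.06 and -0.07 in Atg5f/f;Vav, ranges that overlap. The part of cycling in the differences of the enzymes was not tested, and in sorted bulk samples fewer cells of a type and less RNA per cell cannot be told apart.

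Markers of cell types also differed between the groups, and their part in the result was not tested. Of 9 LSK markers, 1 rose (Ly6a, which encodes Sca1, by 1.57) and 3 fell (Mecom at -1.75, Hlf at -1.65 and Procr at -1.56), while Kit had -0.38 (adjusted p = 0.0563). Kit, which the sort itself selects on, and Flt3 passed as lower too under normexp, quantile and detected-probe scaling, which each gave 5 falls. The median log2 signal of that list was 3.40 to 3.46 in control and 2.85 to 2.91 in Atg5f/f;Vav. Of 10 erythroid markers, 4 rose (Car1 by 3.80, Klf1 by 2.95, Tfrc by 2.15 and Epor by 2.08) and 4 fell (Hba-a1 at -2.26, Alas2 at -2.07, Hbb-b1 at -1.92 and Hbb-bt at -1.22). Early erythroid genes were thus among those that rose and haemoglobin genes among those that fell. The list's median log2 difference was -0.55, with 4 of 10 genes higher and 6 lower whether or not they passed. In the myeloid list 3 of 9 rose and 5 fell (1 and 4 under quantile normalization), among the megakaryocyte markers 1 of 5 rose and 3 fell, and among B cell markers 1 of 6 rose. Over all genes 18.7% passed as higher and 15.3% as lower, so a rise of 1 in 5 or 1 in 6 is near that share. Of 4 macrophage markers and 3 T and NK cell markers that could be tested, 0 passed the limma test, and 0 had an unadjusted p under 0.05.

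Some stromal transcripts marked 2 control arrays. Of 5 stromal markers tested, 3 (Col1a1, Col1a2 and Sparc) passed as lower in Atg5f/f;Vav and were high in control replicates 2 and 3. The others did not share the whole of that pattern. Cxcl12 had -0.59 in control replicate 1 against -2.19 and -3.12 in replicates 2 and 3. Pdgfrb was lower in control replicate 1 (-0.79) than in control replicates 2 and 3 (0.10 and 0.02). The latter lay within its range of -0.04 to 0.55 in Atg5f/f;Vav. Col1a1, a collagen of fibroblasts and bone cells, had a log2 signal of -4.14 in control replicate 1, 3.23 in replicate 2 and 2.95 in replicate 3, and between -5.49 and -5.16 in the Atg5f/f;Vav arrays. With control replicates 2 and 3 both left out, the enzymes' differences were 0.40 to 1.15, but no probe of any gene passed the test (7307 had an unadjusted p under 0.05) and the single remaining control array was assumed to vary like the others. Leaving out 1 control array could also end the calls. Without control replicate 1, and likewise without control replicate 2, 0 of the 9 enzymes passed the limma test (lowest adjusted p 0.0665 and 0.0697, with 8 of 9 at an unadjusted p under 0.05 in both). All 9 differences stayed above 0 and above the median of all probes in every one of the 18 alternatives run, but their size moved. Under quantile normalization Umps had 0.40, Tyms 0.47, Rrm2 0.49 and Rrm1 0.56, which still passed, and Impdh2 had 0.16 and Paics 0.01, which did not. With all tested probes of each enzyme averaged, Cad had 0.59, still past the threshold, and Paics 0.10 (adjusted p = 0.530).

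**Figure D4:**
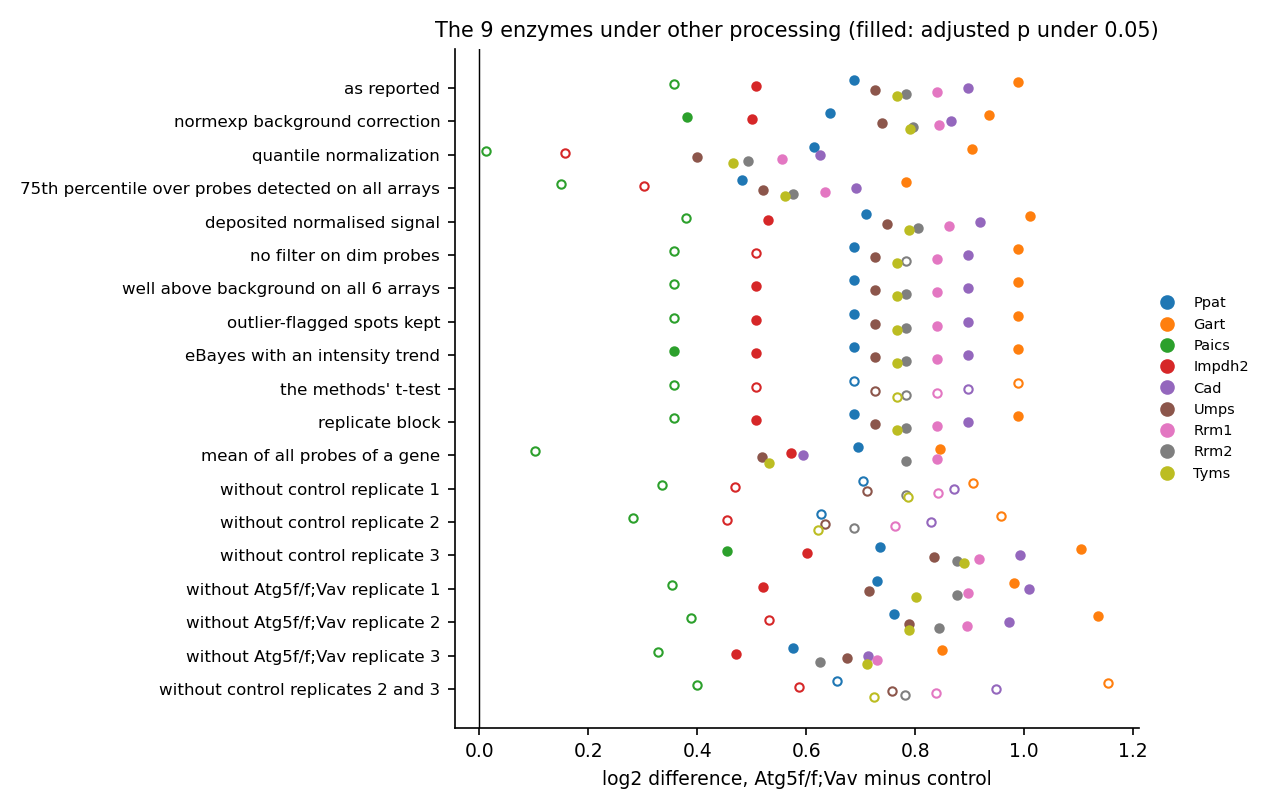
Log2 difference, Atg5f/f;Vav minus control (x axis), of the 9 enzymes (colours) as reported and under 18 other ways of processing or with arrays left out (y axis), filled where the adjusted p was under 0.05. All points lie to the right of 0, and the rows for the methods' t-test and for the sets without control replicate 1, without control replicate 2 and without both control replicates 2 and 3 hold no filled point.

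The genes whose centred log2 signal over the 6 arrays lay closest to the mean of the 9 enzymes, among 20764 others, were Snrpa1, a component of the U2 spliceosomal particle (root mean square distance 0.0087, difference 0.74), Gm5069 (0.0206, difference 0.74), Mtch2, a protein of the outer mitochondrial membrane (0.0226, difference 0.77), Uchl4 (0.0232, difference 0.70) and the transcript ENSMUST00000182346 (0.0237, difference 0.73). Each of the 5 had an adjusted p between 0.0166 and 0.0185 by limma. That follows from how they were picked, since the mean of the enzymes itself separates the groups. The 6 arrays of 2 groups are all that this likeness rests on.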

How the data were processed

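RNA of 3 control and 3 Atg5f/f;Vav LSK samples was hybridised to 1-colour Agilent arrays. The authors deposited scanner intensity files, made with Agilent Feature Extraction 12.0.3.1 per the labels (background-subtracted processed signal), and a table of normalised signal, which equals the deposited intensity divided by 1 constant per array and served as an alternative.

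The log2 intensity was taken relative to each array's 75th percentile over 59305 non-control spots. Spots flagged as outliers were left out, spots of a probe were averaged, and a probe had to be well above background on 3 or more of the 6 arrays, which 32074 of 56605 were. These entered a fit by limma 3.58.1 (R 4.3.3; lmFit and eBayes, two-sided, Benjamini-Hochberg adjustment over all tested probes, threshold 0.05). A gene was represented by its brightest tested probe. Single values were compared by exact two-sided permutation over arrays. The fit was tested on simulated data with 3 arrays against 3. It recovered 48 of 100 probes changed by a log2 of 1 and 82 of 100 changed by a log2 of 2, with 7 false calls in each case. The simulation changed 100 of 32066 probes, whereas 34.4% of probes passed in the fit reported. The adjustment depends on that share, so these figures do not describe the reported fit. The number of arrays limits the precision.

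The enzymes and gene lists were chosen with earlier results of these data known. Named besides the 9 enzymes were their paralogues, the enzymes acting beside them, at most the 3 largest rises and falls of a list and the 5 genes most alike in pattern; the pair of Ppat and Paics, further probes and a few marker values were added after their values were seen. Counts of the proliferation list and cell type lists follow the same rule. Alternatives covered background correction, scaling, filters, the test and arrays left out. Since all arrays share the slide and the scan, neither could be fitted as a block. Protein sequences were not used here, and 1 gene of the deoxynucleotide list is counted but not reported here by name.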

Additional observations from a re-analysis of the deposited data

How the results depend on the processing

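The direction of all 9 enzymes held in each of the 18 alternatives, and the count of called enzymes was 6 to 9 in all but 4 of them. It fell to 0 with the methods' t-test after adjustment (9 at an unadjusted p under 0.05) and with control replicates 2 and 3 left out, an alternative chosen after seeing the data, and it lay between 0 and 9 with single arrays left out. Of all probes 11024 passed, against 4538 without the filter on dim probes, 0 with the methods' t-test (13541 unadjusted), 0 without control replicates 2 and 3, and 251 to 10304 with single arrays left out. Of the 30 synthesis genes 20 passed, against 0 with the methods' t-test, 0 without both control replicates, and 0 to 21 with single arrays left out. The t-test kept the differences (Gart 0.99, Cad 0.90, Rrm1 0.84, Rrm2 0.78, Tyms 0.77, Umps 0.73, Ppat 0.69, Impdh2 0.51) but not the calls. Without both control replicates the values were Gart 1.15, Cad 0.95, Rrm1 0.84, Rrm2 0.78, Umps 0.76, Tyms 0.72, Ppat 0.66 and Impdh2 0.59. Impdh2 lost its call under quantile normalization (0.16), scaling on probes detected on all arrays (0.30) and no filter (0.51), and also without Atg5f/f;Vav replicate 2 (0.53, adjusted p = 0.0513), and Rrm2 under no filter (0.78). Paics passed under normexp background correction (0.38) and an intensity trend (0.36), and without control replicate 3 (0.45, adjusted p = 0.0447), but had 0.10 with the mean of all its probes. The cause was not tested.

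With single arrays left out the differences were 0.85 to 1.14 for Gart, 0.71 to 1.01 for Cad, 0.73 to 0.92 for Rrm1, 0.63 to 0.88 for Rrm2, 0.62 to 0.89 for Tyms, 0.63 to 0.83 for Umps, 0.58 to 0.76 for Ppat, 0.45 to 0.60 for Impdh2 and 0.28 to 0.45 for Paics. The widening over the paralogue was 0.55 to 0.83 for Impdh2 and 1.05 to 1.23 for Rrm2.

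The labels number replicates 1 to 3 in both groups. Same-numbered arrays deviated with correlations of -0.07, 0.19 and 0.11, and differently numbered arrays with correlations of -0.30 to 0.13. So few arrays cannot decide whether the numbers pair the samples. A replicate block gave 10173 probes past the threshold and the same count of 8 enzymes.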

Other observations

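Enzymes that break nucleotides down were measured beside those that make them. Of 16 listed, 9 could be tested, of which 4 rose and none fell, with a median log2 difference of 0.66. Among all genes 18.7% passed as higher and 15.3% as lower. The median was 0.40 under normexp background correction, and scaling on probes detected on all arrays gave 3 rises and 1 fall (Gda, adjusted p = 0.0427). The 5′-nucleotidase Nt5c2 rose by 0.72 ± 0.15 (adjusted p = 0.0183 by limma). The AMP deaminase Ampd3 had the largest difference, 1.07 ± 0.35, which did not pass the test (adjusted p = 0.0505). Neither did Xdh, the oxidase that makes uric acid, with 0.71 ± 0.34 (adjusted p = 0.141), or Gda, the guanine deaminase, with -0.56 ± 0.25 (adjusted p = 0.118). Of 5 nucleoside transporters tested, both equilibrative carriers of the plasma membrane rose, Slc29a1 by 0.60 ± 0.17 (adjusted p = 0.0343) and Slc29a2 by 0.58 ± 0.16 (adjusted p = 0.0312). The lysosomal carrier Slc29a3 had -0.59 ± 0.20 (adjusted p = 0.0566) and the concentrative carrier Slc28a2 had -0.80 ± 0.27 (adjusted p = 0.0581). The median of the transporters was -0.08. These calls depended on the scaling: Slc29a1 missed the threshold under quantile normalization (adjusted p = 0.0802), and scaling on probes detected on all arrays turned 2 rises and 0 falls into 0 rises and 2 falls, with Slc29a3 (adjusted p = 0.0311) and Slc28a2 (adjusted p = 0.0353) lower. Normexp gave 2 rises and 2 falls.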
